A study of Mus musculus with 31 samples.

Results

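The tripartite motif (Trim) genes are a family of ubiquitin ligases, and they were taken here as every gene of the count table whose symbol is Trim followed by a number, with or without a letter, apart from Trim28. This gave 66 genes of 20544 in the table. A count was found for 62 of them in at least 1 of 31 single mouse embryos, and 27 of the 66 passed the filter on low counts and were tested.

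A TRIM protein is built from a RING domain, 1 or more B-box zinc fingers and a coiled coil, and its C-terminal end sets the subfamily. The RING domain brings a charged ubiquitin-conjugating enzyme to a target, and the coiled coil joins TRIM chains into dimers. The commonest C-terminal end is PRYSPRY, found in restriction factors and in regulators of antiviral signalling. Others are a PHD finger with a bromodomain, which reads histone tails, NHL repeats, which bind RNA or protein, a COS box, which binds microtubules, and a transmembrane segment.

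The 31 libraries were each made from 1 wild-type (WT) 2-cell embryo collected 32 h post-insemination, 16 from control- and 15 from SER-treated sperm. Sperm came from C57BL/6J males, and oocytes from superovulated CD1 females. In SER, sperm energy restriction and recovery, sperm are held in IVF-TYH medium without energy substrates, which are given back before in vitro fertilization. Control sperm stayed in the complete medium, and both caudae of a male were used, 1 per medium. Embryos of a group can share parents and a fertilization session, so every p below measures the spread between embryos. The work is described as done in independent batches, but the batch of an embryo is not given in the labels, so a batch and the group could not be separated here.

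Total counts on genes lay between 532945 and 3088396 per embryo, with medians of 955806.5 in control- and 1375557 in SER-generated embryos. The stage was checked on 20 detected genes of the 2-cell burst, the short wave of Zscan4, Usp17l, Tdpoz and similar transcripts, whose summed level was 201 to 2923 CPM (counts scaled to a common library total) in control- and 465 to 2547 CPM in SER-generated embryos. Control replicate 4 and SER replicate 15 stood apart from the other 29 embryos. Their mean log2 CPM over the 2-cell burst genes was 1.20 and 2.10, against 3.90 to 6.41 in the others, while their mean over oocyte genes was 8.50 and 8.66, against 5.91 to 7.99. Results that rest on these embryos are given with and without them. Summed cumulus cell genes spanned 22.6 to 1692 CPM in control- and 3.51 to 302 CPM in SER-generated embryos, and leukocyte genes 19.0 to 74.4 and 6.23 to 182 CPM, with none of the 15 and 10 listed genes at 0 in all embryos. For sperm genes, all 11 with a count, the ranges were 102 to 282 and 87.1 to 373 CPM. Their part in the results was not tested.

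An embryo held between 32 and 48 Trim genes with a count, with a median of 38 in control- and 37 in SER-generated embryos. Of the 66 genes, 16 had a count in all 31 embryos, 19 in 16 to 30 and 27 in 1 to 15. No count was found for Trim12a, Trim16, Trim55 and Trim58 among 41350577 counts over all embryos. A count of 0 allows up to 0.0726 CPM there, which covers counting error only. All 66 were found by symbol in GENCODE vM21 (GRCm38), and 22 of them have exons that overlap those of another gene.

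Summed over the 66 genes, the family took 4780 ± 934 CPM (SD, n = 16) in control- and 4027 ± 764 CPM (SD, n = 15) in SER-generated embryos. The 3 neighbours Trim60, Trim61 and Trim75 held 54.2% of all Trim counts, and the 3 Trim43 copies held 12.3%. The other 60 genes held 33.5%, and their sum varied little from embryo to embryo, at 1467 ± 126 CPM (SD, n = 16) in control- and 1394 ± 165 CPM (SD, n = 15) in SER-generated embryos. Trim61 alone held 43.7% of the family's counts.

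Levels of different genes are compared as CPM per kb of exon. On that scale the median over 31 embryos was 959.9 for Trim61, which ranked number 10 of 17453 genes with a known exon length. Trim60 followed at 95.9, Trim43b at 82.3, Trim43a at 63.5, Trim13 at 62.5, Trim59 at 58.0 and Trim75 at 44.9. Trim61 was the highest of the 66 by a wide gap, and its lowest embryo, at 414 CPM per kb, lay above the highest embryo of every other Trim gene, 381 for Trim43b. The next genes, Trim60 to Trim75, had ranges that overlapped one another. Below them came Trim41 at 31.4, Trim27 at 28.8 and Trim43c at 26.5, also with overlapping ranges.

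**Figure D1:**
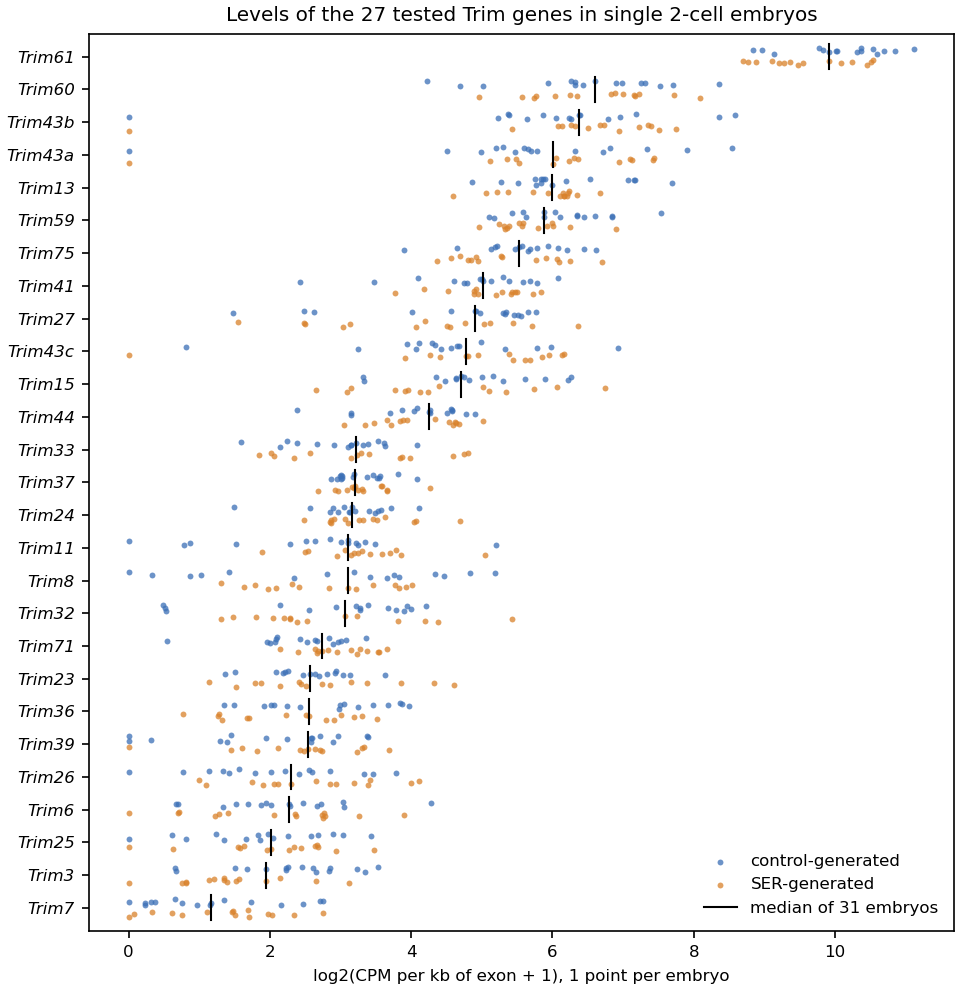
Level of each of the 27 tested Trim genes, as log2 of CPM per kb of exon plus 1, with 1 point per embryo (blue for 16 control-, orange for 15 SER-generated embryos) and a black bar at the median of 31 embryos. Trim61 stands to the right of all others, the 2 points at 0 for Trim43a and Trim43b are control replicate 4 and SER replicate 15, and the blue and orange points overlap for every gene.

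Trim60, Trim61 and Trim75 lie side by side on the minus strand of chromosome 8, within 37.7 kb. Trim75 spans chr8:64980884-64987831, Trim61 spans chr8:65012987-65018523 and Trim60 spans chr8:64999307-65018584 on GRCm38. The annotated Trim60 gene runs past Trim61, and the exons of both share 66 bases. Of all stretches of 45 bases, the longer read length, in the longest Trim61 transcript, 1.29% were also found in Trim60, and of those in Trim60, 0.952% were found in Trim61. Trim75 shared none with any other gene's transcripts. RefSeq (GRCm38.p6) gives Trim60 and Trim61 the same start, so that their promoter windows, 250 bases before to 50 bases after the start, are identical. The windows are shown because the levels of these genes were related to one another and to those of the Trim43 genes across embryos, as described further on. Capitals mark the letters TAATCC or, on the other strand, GGATTA, the core bound by paired-like homeobox factors such as Otx2.

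Trim60 and Trim61 promoter, chr8:65018639-65018938, minus strand: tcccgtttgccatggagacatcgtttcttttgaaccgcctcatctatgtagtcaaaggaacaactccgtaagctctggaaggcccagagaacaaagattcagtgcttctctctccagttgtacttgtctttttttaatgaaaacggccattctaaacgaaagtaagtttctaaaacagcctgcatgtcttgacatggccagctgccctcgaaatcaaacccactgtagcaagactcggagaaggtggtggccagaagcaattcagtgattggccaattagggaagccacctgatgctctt
Trim75 promoter, chr8:64987595-64987894, minus strand: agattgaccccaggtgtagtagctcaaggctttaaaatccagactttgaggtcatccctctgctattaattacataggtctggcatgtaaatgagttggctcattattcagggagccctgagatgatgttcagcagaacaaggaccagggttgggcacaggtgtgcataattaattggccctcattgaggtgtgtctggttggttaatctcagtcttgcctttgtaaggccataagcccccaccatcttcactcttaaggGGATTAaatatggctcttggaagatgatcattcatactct

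The Trim75 window held 1 match, which began 10 bases after the start, and the window shared by Trim60 and Trim61 held none. Over all 32851 promoter windows of the table, 7.06% held the motif on either strand.

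The 3 Trim43 genes carry PRYSPRY ends and are known as transcripts of cleavage-stage embryos. They lie on chromosome 9, Trim43a at chr9:88580891-88588819 and Trim43c at chr9:88839164-88848190 on the plus strand and Trim43b at chr9:89084624-89092835 on the minus strand. They are near-identical copies, so the counts of a single Trim43 gene are uncertain. Of the 45-base stretches in the longest transcript, 52.5% of those of Trim43a, 52.5% of Trim43b and 62.5% of Trim43c occurred in another gene. Trim43c also has 768 exon bases under 9330159M07Rik on the opposite strand, and the strand setting of the counting is not given in the sources used here. A RefSeq window was found for Trim43a but not for Trim43b or Trim43c, and it is shown with the same motif in capitals.

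Trim43a promoter, chr9:88580641-88580940, plus strand: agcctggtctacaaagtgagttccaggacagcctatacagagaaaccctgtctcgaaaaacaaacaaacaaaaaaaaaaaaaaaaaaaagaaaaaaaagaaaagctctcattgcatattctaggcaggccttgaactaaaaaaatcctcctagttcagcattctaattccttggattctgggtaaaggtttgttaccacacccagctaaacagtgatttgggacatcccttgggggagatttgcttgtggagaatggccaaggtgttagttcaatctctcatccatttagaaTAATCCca

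Its single match began 42 bases after the start. GATTNAATC, a core of the site of the 2-cell homeobox factor Dux, was found in none of these windows and in 0.268% of all windows. Of the 66 genes, 51 had a RefSeq window.

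The first comparison asked whether Trim transcripts differed between SER- and control-generated embryos. In edgeR's quasi-likelihood fit, with p-values adjusted over 8571 genes by the Benjamini-Hochberg method, 0 of the 27 tested Trim genes had an adjusted p under 0.1, and this was also so for 0.0% of all genes. At an unadjusted p under 0.05, 3 Trim genes were lower and 1 was higher in SER-generated embryos, 14.8% of the 27 against 5.73% of all genes. Over all genes, 3.55% were lower and 2.18% higher at this p. The Trim genes had log2 fold changes from -1.17 to 0.57, with a median of -0.04 against 0.02 over all genes, and 12 were on the positive and 15 on the negative side. The adjusted p was 0.733 or more for each of the 27. A library holds both cells of an embryo, so less RNA of a gene in each cell and a loss from 1 cell cannot be told apart. For 7 of the 27 the 95% interval lay within a 2-fold change in either direction.

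Of the NHL subfamily, Trim3, Trim32 and Trim71 were tested. Trim3 is a ligase best known from neurons, where it acts at synapses. Its level was 2.61, 18.8 and 48.1 CPM (lowest, median, highest) in control- and 0.00, 7.12 and 35.2 CPM in SER-generated embryos. The ranges overlapped, and 2 of 15 SER-generated embryos exceeded the median of the controls. Its log2 fold change, SER minus control, was -1.17 ± 0.47 (SE), with p = 0.0165 and adjusted p = 0.733 by edgeR. Trim71, the Lin-41 protein that represses mRNAs in early embryos and stem cells, ran from 4.30 through a median of 46.7 to 86.6 CPM in control- and from 32.1 through 62.9 to 108 CPM in SER-generated embryos. It exceeded the median of the controls in 13 of 15 SER-generated embryos, and the log2 fold change was 0.54 ± 0.26 (SE; p = 0.0446, adjusted p = 0.868, edgeR). A transcript on the opposite strand, C130032M10Rik, overlaps 135 exon bases of Trim71. Trim32, which marks muscle and neuronal proteins, had a log2 fold change of 0.11 ± 0.49 (SE), and it turned to -0.26 without the 2 embryos that stood apart. SER replicate 15, at 135 CPM, held its highest value, and the medians were 28.1 CPM in control-generated and 13.6 CPM in SER-generated embryos. Trim2, the neuronal relative of Trim3, had 30 counts in all, from 7 control- and 3 SER-generated embryos, and was not tested.

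Trim13 and Trim59 are anchored in membranes, Trim13 in the endoplasmic reticulum. Trim59 ran from 112 through a median of 223 to 618 CPM in control- and from 101 through 156 to 395 CPM in SER-generated embryos. Control replicate 1 was its highest embryo, and 2 of the SER-generated embryos exceeded the median of the controls. The log2 fold change was -0.59 ± 0.24 (SE; p = 0.019, adjusted p = 0.752, edgeR), and it was -0.41 without control replicate 1. Trim13 had a log2 fold change of -0.47 ± 0.28 (SE; p = 0.101, adjusted p = 0.892, edgeR), with medians of 95.4 CPM in control-generated and 115 CPM in SER-generated embryos, so that its median and its fitted change point in opposite directions, and in limma voom the log2 fold change was 0.059. Its highest values, up to 340.4 CPM, were in control-generated embryos. Of its 45-base stretches, 17.7% were also found in the transcript Gm9359.

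Trim61, the most abundant of the family, ran from 902 through a median of 2292 to 4416 CPM in control- and from 820.3 through 1405 to 2944 CPM in SER-generated embryos. The highest value was that of control replicate 4, and 4 of the SER-generated embryos exceeded the median of the controls. The log2 fold change was -0.54 ± 0.24 (SE; p = 0.0313, adjusted p = 0.809, edgeR). It was -0.43 without control replicate 4. Without both embryos that stood apart, Trim61 was not at an unadjusted p under 0.05 in edgeR's fit. Its neighbour Trim60 ran from 47.3 through a median of 242 to 875 CPM in control- and from 80.3 through 301 to 726 CPM in SER-generated embryos, with a log2 fold change of -0.06 ± 0.33 (SE). For Trim60 this was 0.18 without control replicate 4 and -0.25 without SER replicate 15. Trim75 had a log2 fold change of -0.19 ± 0.26 (SE), and its medians were 167 CPM in control-generated and 132 CPM in SER-generated embryos. Both stood far from the threshold, with p = 0.851 for Trim60 and 0.463 for Trim75 (adjusted p = 0.992 and 0.968, edgeR).

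**Figure D2:**
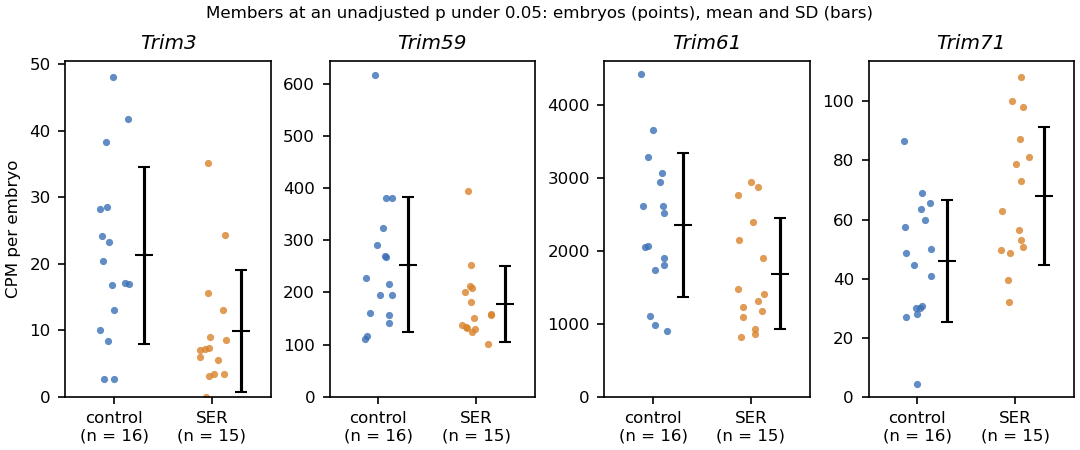
CPM per embryo of Trim3, Trim59, Trim61 and Trim71, the Trim genes at an unadjusted p under 0.05, with 1 point per embryo and the mean and SD as black bars, for 16 control- and 15 SER-generated embryos. The groups overlap in all 4 panels, with means of 21.3 and 9.92 CPM for Trim3, 253 and 178 CPM for Trim59, 2354 and 1688.5 CPM for Trim61 and 46.1 and 68.0 CPM for Trim71, control first.

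The Trim43 genes did not pass the test. Trim43b ran from 0.00 through a median of 169 to 862 CPM in control- and from 0.00 through 228 to 486 CPM in SER-generated embryos, and the log2 fold change was -0.04 ± 0.49 (SE). For Trim43a it was -0.18 ± 0.50 (SE) and for Trim43c 0.26 ± 0.44 (SE). Trim43a and Trim43b varied more between embryos than 98.9% and 98.7% of genes did relative to the trend of variation on abundance. Trim37 lay at the other end, with less relative variation than all but 0.723% of genes. These values come from the fit of all 31 embryos. Control replicate 4 and SER replicate 15 had no count of Trim43a and Trim43b, and the variation without these embryos was not computed. Trim37, a ligase of centrosomes and peroxisomes, had a log2 fold change of -0.01 ± 0.20 (SE), with a 95% interval from -0.42 to 0.39.

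Of the genes with a PHD finger and bromodomain, Trim24, a co-regulator of nuclear receptors, had a log2 fold change of 0.22 ± 0.25 (SE). Trim33, a ligase that acts on Smad4, had 0.49 ± 0.32 (SE; p = 0.133, adjusted p = 0.928, edgeR), and its medians were 76.7 CPM in control-generated and 86.4 CPM in SER-generated embryos. Trim66, a relative known mainly from testis, had 30 counts in 11 embryos and was not tested. Trim36, a COS-box ligase, had -0.67 ± 0.38 (SE; p = 0.085, adjusted p = 0.869, edgeR), and Trim8, a regulator of cytokine signalling, had -0.55 ± 0.50 (SE). Trim23, a ligase with a GTPase domain, had 0.46 ± 0.35 (SE), and Trim26 had 0.57 ± 0.44 (SE). With the log2 library size as a covariate both turned, to -0.21 for Trim23 and -0.006 for Trim26, and Trim8 turned to 0.16 with the replicate number as a block.

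Of the 37 genes with a PRYSPRY end, 14 were tested, 7 on each side of 0, and none had an unadjusted p under 0.05. Among them Trim41 had 0.05 ± 0.25 (SE), Trim25, the ligase of the RNA sensor RIG-I, had 0.14 ± 0.48 (SE), and Trim11 had 0.43 ± 0.46 (SE). Trim11 was highest in the 2 embryos that stood apart, at 128 and 115 CPM, against at most 48.2 CPM elsewhere, and its log2 fold change was 0.92 without control replicate 4, 0.15 without SER replicate 15 and 0.63 without both. Trim21, the cytosolic antibody receptor, had 45 counts, from 7 control- and 2 SER-generated embryos, and was not tested. On chromosome 7, 11 genes of a region from Trim21 to Trim30d, which include the antiviral Trim5, Trim12, Trim30 and Trim34 genes, together held 1355 counts over 31 embryos, of which Trim6 gave 903.

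**Figure D3:**
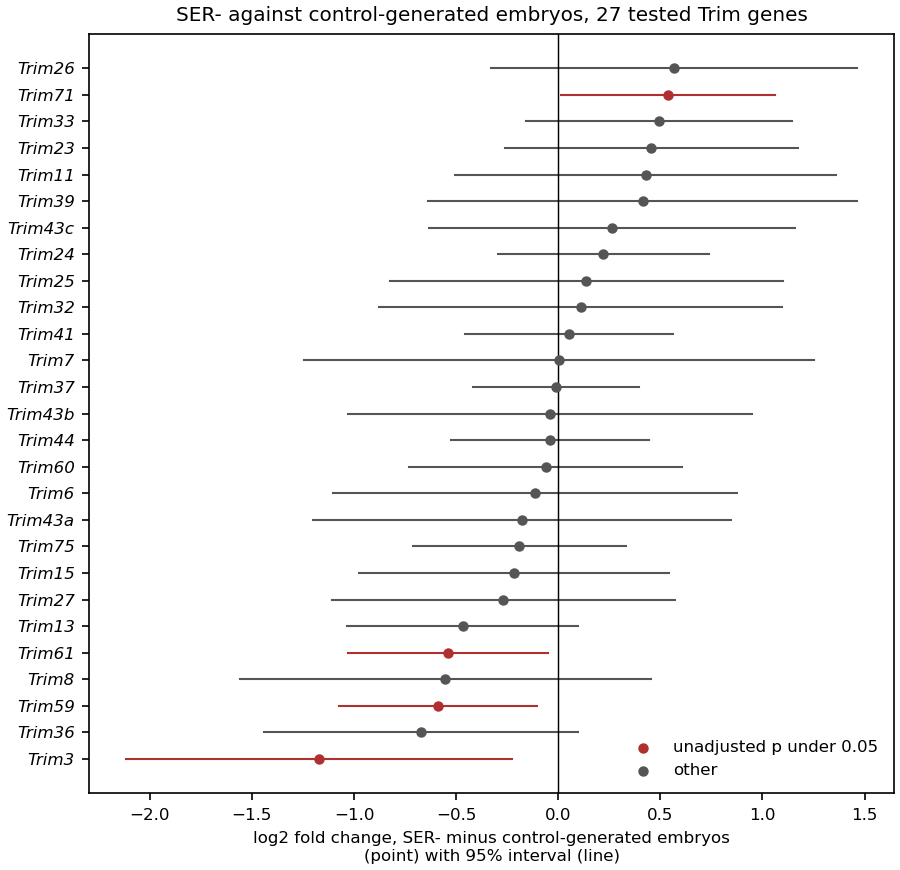
Log2 fold change of the 27 tested Trim genes, SER- minus control-generated embryos, from edgeR's fit, with the 95% interval as a line. Red marks an unadjusted p under 0.05. The intervals of Trim3, Trim59, Trim61 and Trim71 leave out 0, and no gene passed the adjusted threshold.

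The calls depended on the tool. With limma voom and sample quality weights, 4 of the 27 Trim genes had an adjusted p under 0.1, as did 9.89% of all genes. These were Trim61 (log2 fold change -0.69, adjusted p = 0.0208), Trim75 (-0.62, adjusted p = 0.0544), Trim27 (-1.09, adjusted p = 0.08) and Trim15 (-0.82, adjusted p = 0.0862), all lower in SER-generated embryos. Over all alternatives other than leaving out 1 embryo, the adjusted p of Trim61 ranged from 0.0208 to 1. That of Trim75 ranged from 0.0544 to 1 and that of Trim27 from 0.08 to 1. DESeq2, whose own filter left Trim3 without an adjusted p, called none of the Trim genes and 0.605% of all genes. Without a filter on low counts, edgeR called Trim17 and 2.83% of all genes. Trim17 had 6 counts, all from 5 control-generated embryos. The number of Trim genes at an unadjusted p under 0.05 was 2 without the 2 embryos that stood apart, and these were Trim59 and Trim3. It was also 2 without control replicate 1 or SER replicate 10, and 2 (Trim59 and Trim3) with the library size as a covariate.

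Genes that work with TRIM ligases were counted in the same fit. Of the ubiquitin-activating (E1) and ubiquitin-conjugating (E2) enzymes, 14 of 18 were tested, 2 were higher at an unadjusted p under 0.05 and none lower, with a median log2 fold change of -0.07. These were Ube2z, 75.7 ± 31.7 CPM (SD, n = 16) in control- and 121 ± 38.8 CPM (SD, n = 15) in SER-generated embryos, and Ube2g2. Stat2, which carries the interferon signal, was the single gene at an unadjusted p under 0.05 among 10 tested genes of innate sensing, on the higher side, with a list median of 0.13. None of 12 tested genes of the small RNA pathway had an unadjusted p under 0.05, with a median of 0.18, nor did Mid1 and Pml, relatives of the family under other names. No gene of these lists had an adjusted p under 0.1, against 0.0% of all genes.

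The second comparison related each Trim gene to the 2-cell burst, the brief set of transcripts made as the embryonic genome switches on. Pearson's r was taken across embryos between log2 CPM of a gene and the mean log2 CPM over 18 tested 2-cell burst genes. This log2 CPM used library totals scaled by edgeR's TMM factors and a prior of 1 count. A permutation test of 100000 resamples was adjusted over all 8553 genes outside the list. The 2 embryos that stood apart are the 2 farthest from the median of this score. They also formed a cluster of their own on the 1000 most variable genes, so the values without them come first. Across the other 29 embryos, 4 Trim genes rose with the 2-cell burst at an adjusted p under 0.05, 14.8% of the 27 against 3.07% of all genes, and 1 fell with it, 3.7% against 3.96%. The 4 include the Trim43 copies, whose transcripts share sequence, so the 14.8% should not be read as a share of independent genes.

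Those that rose were Trim43b, Trim43a, Trim43c and Trim33. For Trim43b, r was 0.72 and Spearman's rho 0.69 over 29 embryos (permutation p = 1e-05 and 3e-05, adjusted p = 0.00428 and 0.016), where 1e-05 is the smallest value that 100000 resamples can give. Trim43a had r = 0.67 and rho = 0.63 (permutation p = 0.0001 and 0.00033, adjusted p = 0.0121 and 0.0362). Trim43c had r = 0.58 and rho = 0.57 (permutation p = 0.00115 and 0.00188, adjusted p = 0.031 and 0.07). Trim33 had r = 0.53 and rho = 0.45 (permutation p = 0.00344 and 0.0157, adjusted p = 0.0497 and 0.155), so that its rank correlation did not pass. Trim27 fell with the 2-cell burst, with r = -0.54 and rho = -0.42 (permutation p = 0.00299 and 0.0261, adjusted p = 0.0472 and 0.194). Its levels fell into a low and a high set of embryos, described further on.

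Within the groups, r of Trim43b was 0.84 over 15 control- and 0.66 over 14 SER-generated embryos, and that of Trim43a was 0.87 and 0.51. For Trim33 the values were 0.48 and 0.56, and for Trim27 -0.70 and -0.43. Each kept its sign in both groups. Over the 15 control-generated embryos 9 of the 27 passed, against 17.3% of all genes, and over the 14 SER-generated embryos 0 of the 27 passed, against 0.0% of all genes, with an adjusted p of 0.526 for Trim43b and 0.712 for Trim43a in the permutation test. At an unadjusted permutation p under 0.05 there were 3 in the SER-generated embryos, Trim33, Trim43b and Trim43c. Whether r differed between the groups was not tested. Batches were not known, but embryos could be divided into clusters on their 1000 most variable genes, of which 1 held the 2 embryos that stood apart, 1 held 8 embryos and 1 held 21. Within the clusters of 8 and 21, r was 0.78 and 0.76 for Trim43b, 0.46 and 0.77 for Trim43a, 0.48 and 0.52 for Trim33 and -0.54 and -0.58 for Trim27. Control replicates 1, 2 and 3 and SER replicates 1, 2 and 3 all lay in the cluster of 21. Their burst scores ran from 5.64 to 6.41, their Trim43a levels from 270 to 736 CPM and their Trim27 levels from 9.75 to 42.9 CPM. SER replicate 5, also in that cluster, had a score of 5.81 and 275 CPM of Trim43a. How far the replicates numbered 1, 2 and 3 carried r there was not tested. The 2-cell burst score itself was related to the log2 library size over the 29 embryos (r = 0.42, rho = 0.43, permutation p = 0.0235 and 0.0196), and the part of depth in these relations was not tested over those 29.

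With all 31 embryos, 5 Trim genes rose and 5 fell with the score, against 20.3% and 9.37% of all genes. Trim25 joined the first (r = 0.54), and Trim11 (-0.61), Trim60 (-0.61), Trim75 (-0.60) and Trim32 (-0.44) joined Trim27 on the other side. None of these 5 additions passed over 29 embryos, where r of Trim25 was -0.27, that of Trim11 -0.43, that of Trim60 -0.38, that of Trim75 -0.34 and that of Trim32 -0.24. In both directions together these were 10 of the 27, against 29.7% of all genes. Without SER replicate 15 alone, 6 of the 27 passed, against 11.4% of all genes.

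Control replicate 4 had no count of Trim43a and Trim43b and 1 count of Trim43c, and SER replicate 15 had none of the 3, at totals of 662768 and 2567720. The lowest of the other 29 embryos had 43.0 CPM of Trim43a, 82.9 of Trim43b and 16.9 of Trim43c. Trim33 was also lowest in these embryos, at 19.6 and 25.3 CPM against 29.7 to 265 in the others. Trim60, at 875 and 726 CPM, and Trim75, at 338 and 361 CPM, were higher there than in any other embryo, and Trim15 and Trim11 were as well. Trim61 was highest of all in control replicate 4 and took place 16 of 31 in SER replicate 15.

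**Figure D4:**
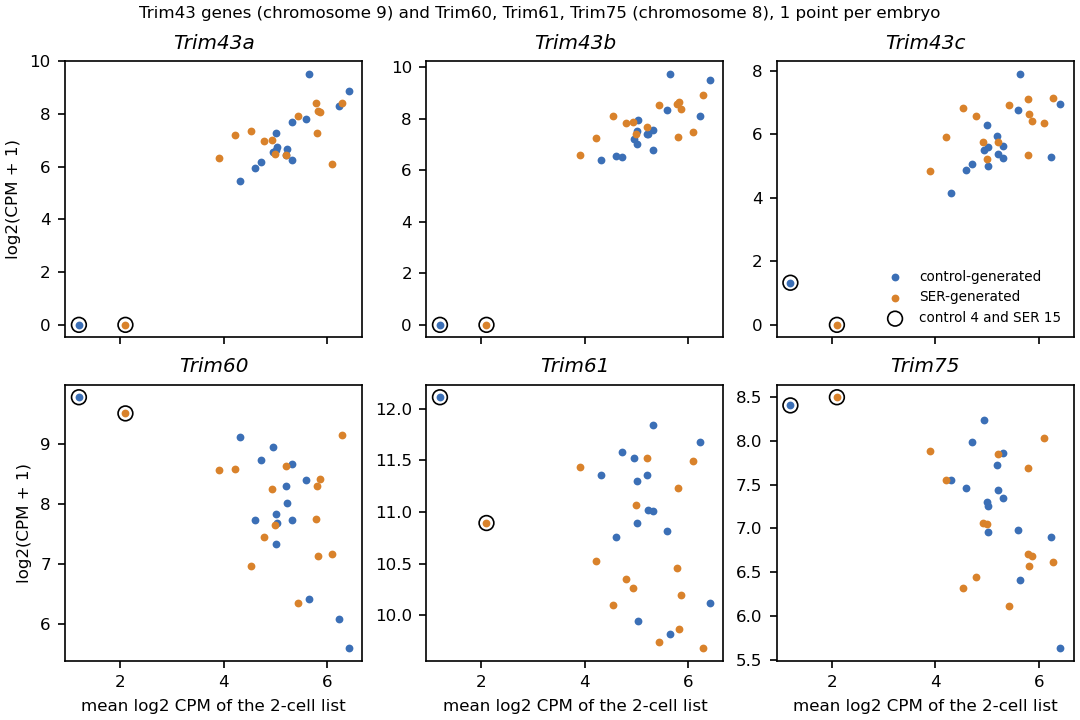
Log2(CPM + 1) of Trim43a, Trim43b and Trim43c (top) and Trim60, Trim61 and Trim75 (bottom) against the mean log2 CPM of the 2-cell burst genes, with 1 point per embryo (blue for control-, orange for SER-generated) and circles around control replicate 4 and SER replicate 15. The Trim43 genes rise from left to right also without the circled points, with r from 0.58 to 0.72 over 29 embryos. The r values were computed on TMM-scaled log2 CPM, not on the plotted log2(CPM + 1).

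The genes of the chromosome 8 and chromosome 9 groups were also set against each other. These 6 genes were chosen after their values were seen, so their correlations are given as a description. Over 29 embryos the 3 Trim43 genes were close to one another, with r from 0.82 to 0.92 and rho from 0.78 to 0.90. The part of the sequence that such copies share in these values was not tested. Trim61 and Trim75 had r = 0.81 and rho = 0.81. No 45-base stretch of Trim75 occurred in Trim61, and shorter or inexact matches were not examined. Trim60 and Trim75 had r = 0.61, and Trim60 and Trim61, which share a promoter window, had r = 0.30. Between the groups, all 9 pairs were negative, with r from -0.77 to -0.52 and rho from -0.79 to -0.45. Trim75 and Trim43b had the strongest, with r = -0.77.

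The negative pairs kept their sign within control-generated embryos, where r ran from -0.84 to -0.39, and within SER-generated embryos, where it ran from -0.79 to -0.04. In the cluster of 21 embryos, which held replicates 1, 2 and 3 of both groups, it ran from -0.78 to -0.29. In the cluster of 8 it ran from -0.74 to 0.65. There Trim75 was positively related to Trim43a, Trim43b and Trim43c, with r = 0.30, 0.38 and 0.65. In the same order, Trim61 had r = -0.06, 0.007 and 0.30, and Trim60 had r = -0.14, -0.54 and -0.74. In that cluster a negative r was thus seen with each Trim43 gene for Trim60 only. Trim61 and Trim75 were positively related in both clusters, with r = 0.55 in that of 8 and 0.65 in that of 21. The other chromosome 8 pairs were not. Trim60 and Trim75 had r = -0.22 and 0.49, and Trim60 and Trim61 had r = 0.03 and -0.06, in the same order.

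The same relation was computed for 16 tested oocyte genes, after the values for the 2-cell burst had been seen. Over 29 embryos, 3 Trim genes rose with the oocyte score and 4 fell, against 9.95% and 12.5% of all genes, which is 851 and 1067 genes. Trim61 (r = 0.58, rho = 0.54, permutation p = 0.00089 and 0.00271, adjusted p = 0.00795 and 0.021) rose with it, as did Trim15 and Trim23. Trim6 (r = -0.62, rho = -0.62, permutation p = 0.00027 and 0.00036, adjusted p = 0.00349 and 0.00518) fell with it, as did Trim39, Trim27 and Trim11. With all 31 embryos 5 rose and 7 fell, against 15.8% and 26.8% of all genes. The share of Trim genes in either direction lay near that of all genes.

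Trim27, a PRYSPRY ligase with a role in endosome sorting, had separate low and high ranges among the embryos. It was chosen for a closer account after its values were seen. In 8 embryos it lay at 9.75 to 42.9 CPM, and in the other 23 it lay at 83.0 CPM or higher, up to 446 CPM in SER replicate 7, with no embryo between. The 8 were control replicates 1, 2 and 3 and SER replicates 1, 2, 3, 11 and 13, so both groups held some of them. The 2-cell burst scores of these 8 ran from 4.99 to 6.41. In the rest, without control replicate 4 and SER replicate 15, the scores ran from 3.90 to 5.81. Whether Trim27 falls with the score within the low or the high set was not tested. Its log2 fold change was -0.27 ± 0.42 (SE; p = 0.521, adjusted p = 0.973, edgeR), and relative to the trend it varied more than 92.0% of genes. Whether these embryos share a batch could not be told from the labels.

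**Figure D5:**
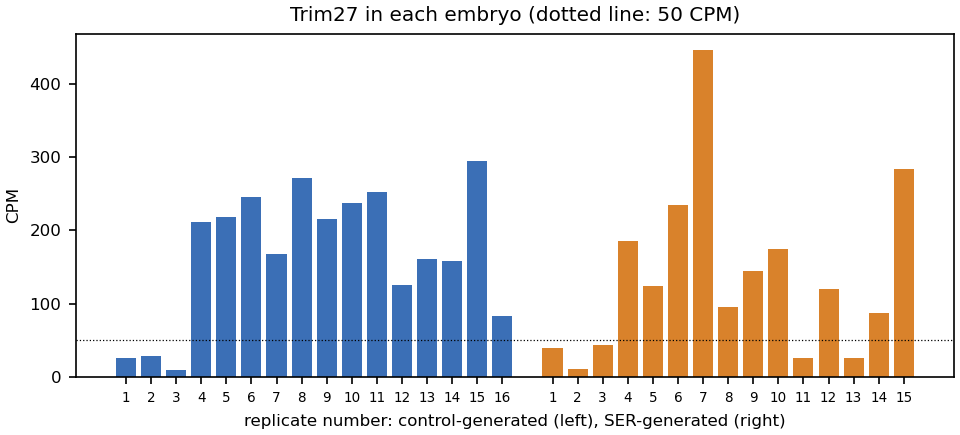
CPM of Trim27 in each embryo, with 16 control-generated embryos on the left (blue) and 15 SER-generated embryos on the right (orange), by replicate number, and a dotted line at 50 CPM. Control replicates 1, 2 and 3 and SER replicates 1, 2, 3, 11 and 13 lie under the line, and the other 23 embryos lie at 83.0 CPM or higher.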

How the data were processed

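Single-embryo RNA was sequenced by Smart-seq3, which tags 5′-end fragments with molecular identifiers and leaves internal fragments untagged. The authors used STAR for alignment, UMI-tools (tagged) and Picard (untagged) for deduplication, and featureCounts on the merged alignments. For tagged fragments they kept only reads with a unique alignment. The deposited values are whole-number counts without normalization. The submitters' processing notes name build mm10. Versions, annotation and strand setting are not given in the sources used here. No embryo's batch is named, so the batch correction that the authors applied was not run here.

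The 27 Trim genes tested were those kept by filterByExpr (minimum count 10, minimum total 15) among 8571 genes. The comparison of groups used glmQLFit and glmQLFTest of edgeR (4.0.16, under R 4.3.3), TMM factors and no covariates, and an adjusted p under 0.1 counted as a call. The standard error is the log2 fold change divided by the square root of F. CPM levels came from library totals, and exon lengths from GENCODE vM21. The relations and the mean log2 CPM over gene lists used TMM-scaled totals and a prior count of 1. Relations were tested by 2-sided permutation of embryos and adjusted over all genes, not over the Trim genes as first planned. Both scripts were tested on simulated data. Alternatives were limma voom (3.58.1), DESeq2 (1.42.0), other size factors and filters, library size, thinned counts, 3 estimated clusters, the replicate number as a block and leaving out embryos.

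Genes were named if they were among the 10 with the highest median level per kb, the 10 with the smallest p or the 5 with the largest positive and 5 with the largest negative r with the 2-cell burst, or were on a short list of well-known members. The members and all gene lists were chosen with earlier results of these data known. Promoter windows are RefSeq's. The 95% intervals of fold changes come from edgeR's fit and include the spread between embryos. The limit given for a count of 0 covers counting error only, and internal reads carry no identifier. Depth was 532945 to 3088396 counts per embryo.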

Additional observations from a re-analysis of the deposited data

How the results depend on the processing

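No Trim gene passed the adjusted threshold in any of the 31 fits that left out 1 embryo, and the same held for all alternatives but 2. These were limma voom with sample quality weights, with 4 genes (9 at an unadjusted p under 0.05), and no filter, with 1 gene (10 at an unadjusted p under 0.05). The number of Trim genes at an unadjusted p under 0.05, 4 in the reported comparison, was 2 with the log2 library size as a covariate and 2 without control replicate 4 and SER replicate 15, a setting chosen after seeing the data, and from 2 to 4 when 1 embryo was left out. Same-numbered embryos of the groups were not paired, since the correlation of their deviations ran from -0.35 to 0.48 over 15 pairs, with 8 over 0.1, and 2 SER-generated embryos correlated best with their own number. With the replicate number as a block, 1 Trim gene had an unadjusted p under 0.05, and with the block and the log2 library size 0 did, and no Trim gene passed the adjusted threshold in either. The causes of these differences were not tested.

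Of the named Trim genes, 14 changed sign under at least 1 alternative, among them Trim26, Trim8, Trim13 and Trim23, whose reported log2 fold changes were 0.57, -0.55, -0.47 and 0.46. With the replicate block the log2 fold change of Trim8 was 0.16, of Trim32 -0.16, of Trim37 0.023, of Trim43a 0.037, of Trim43b 0.19 and of Trim60 0.10, and with the block and library size it was 0.61 for Trim8, -0.35 for Trim23, -0.033 for Trim25, -0.36 for Trim43c, 0.83 for Trim60 and 0.26 for Trim75. With limma voom it was 0.059 for Trim13, -0.088 for Trim25, -0.57 for Trim32, 0.13 for Trim37, -0.20 for Trim41, 0.75 for Trim43a and 0.69 for Trim43b. With the library size as a covariate it was -0.21 for Trim23, -0.006 for Trim26, 0.009 for Trim27, -0.14 for Trim32, 0.071 for Trim37 and 0.27 for Trim60. With 3 estimated clusters it was -0.39 for Trim32, 0.073 for Trim43b and 0.08 for Trim60, with thinned counts -0.02 for Trim25, without a filter 0.011 for Trim37, and without the 2 embryos -0.26 for Trim32. Leaving out 1 embryo moved Trim25 from -0.009 to 0.36, Trim32 from -0.36 to 0.21, Trim37 from -0.10 to 0.091, Trim41 from -0.033 to 0.16, Trim43a from -0.29 to 0.14, Trim43b from -0.14 to 0.23 and Trim60 from -0.25 to 0.18. Trim59, Trim61 and Trim71 kept their sign under every alternative run, and Trim3 did so under all but thinned counts, where it did not pass the filter. Trim11, Trim24, Trim33 and Trim36, which were not at an unadjusted p under 0.05 in the reported comparison, also kept their sign wherever they were tested.

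Of the 27 Trim genes, 10 were related to the 2-cell burst over 31 embryos, against 29.7% of all genes. There were 5 without the 2 embryos (7.04% of all genes), 4 with Spearman's rho (8.03%), 2 with rho and without the 2 embryos (1.59%), and 6 to 13 when 1 embryo was left out (11.4% to 35.5%). The counts with and without the 2 embryos include Trim43 copies, whose transcripts share sequence. Relations to the oocyte genes, 12 over 31 embryos (42.5% of all genes), fell to 7 without the 2 embryos (22.4%), also by rho (19.5%), and ran from 7 to 13 when 1 was left out (31.9% to 46.0%). The 39 Trim genes that were not tested had too few counts at this depth for the filter.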
